A study of Mus musculus with 8 samples.

Results

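Mitochondrial ribosomal protein genes were described in cultured mouse tail tendon fibroblasts that had lost or kept Scx, the gene of scleraxis, a transcription factor of the bHLH class made by tendon cells. They were taken by name, as every gene of the deposited count table whose symbol begins with Mrpl or Mrps followed by a number, leaving out symbols that hold -ps, which mark pseudogenes. This gave 78 of 24982 genes, and all 78 had enough reads to be among the 13125 genes tested. RNA sequencing covered 8 libraries: 4 ScxKO libraries of genotype Scx-, numbered 2, 3, 4 and 5, and 4 ScxWT libraries of genotype Scx+, numbered 2, 3, 5 and 6. Cells of both groups came from C57Bl/6 mice and had received 4HT, the usual abbreviation of 4-hydroxytamoxifen, so that treatment is shared by the groups. The sources used here give neither the age of the mice nor the Cre driver or the deleted part of Scx, and nothing says that libraries of one group came from separate animals or cultures.

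Mitochondria keep a small genome whose few protein products are core subunits of the respiratory chain and of ATP synthase, and they translate its messages on a ribosome of their own. The RNAs of that ribosome are made inside the organelle, whereas its proteins are encoded in the nucleus, made in the cytosol and imported. Some are homologs of bacterial ribosomal proteins and others are found only in mitochondrial ribosomes; Mrpl genes are named for the large subunit and Mrps genes for the small one, with exceptions named where they occur. Tendon fibroblasts are the cells that build and maintain the collagen matrix of tendon.

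The promoters of the 5 genes with the smallest p between ScxKO and ScxWT are shown, because these genes carry the clearest differences among the 78. Each runs 5′ to 3′ on the gene's own strand, from 250 bases before to 50 bases after the RefSeq start on GRCm38.p6. Mrps6 lies at chr16:92058086-92058385 (plus strand), Mrpl45 at chr11:97315466-97315765 (plus), Mrps18a at chr17:46110754-46111053 (plus), Mrps18b at chr17:35916391-35916690 (minus) and Mrpl27 at chr11:94653541-94653840 (plus). Capitals mark exact matches, on either strand, to any of 5 searched motifs: the NRF1 core GCGCATGC, the ETS motif CCGGAAGT, the YY1 motif AAGATGGC, the Myc E-box CACGTG and the Scx-type E-box CATCTG.

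Mrps6: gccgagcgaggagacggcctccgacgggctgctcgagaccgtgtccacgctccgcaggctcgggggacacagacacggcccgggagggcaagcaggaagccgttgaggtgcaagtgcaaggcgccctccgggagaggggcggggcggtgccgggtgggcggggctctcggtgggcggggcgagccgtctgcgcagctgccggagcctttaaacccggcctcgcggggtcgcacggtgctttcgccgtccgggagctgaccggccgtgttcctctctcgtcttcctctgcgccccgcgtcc

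Mrpl45: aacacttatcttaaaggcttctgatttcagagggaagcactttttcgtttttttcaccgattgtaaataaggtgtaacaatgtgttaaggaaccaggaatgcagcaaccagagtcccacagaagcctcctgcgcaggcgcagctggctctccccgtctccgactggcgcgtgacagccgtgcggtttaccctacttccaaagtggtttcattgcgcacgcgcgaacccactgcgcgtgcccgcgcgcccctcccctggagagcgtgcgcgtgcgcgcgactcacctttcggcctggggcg

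Mrps18a: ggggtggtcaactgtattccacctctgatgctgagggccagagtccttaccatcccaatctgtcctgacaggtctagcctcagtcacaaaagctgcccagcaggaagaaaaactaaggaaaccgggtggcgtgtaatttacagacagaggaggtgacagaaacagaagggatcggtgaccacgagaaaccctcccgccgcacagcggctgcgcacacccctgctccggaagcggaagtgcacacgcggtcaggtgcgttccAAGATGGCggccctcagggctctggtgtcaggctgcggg

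Mrps18b: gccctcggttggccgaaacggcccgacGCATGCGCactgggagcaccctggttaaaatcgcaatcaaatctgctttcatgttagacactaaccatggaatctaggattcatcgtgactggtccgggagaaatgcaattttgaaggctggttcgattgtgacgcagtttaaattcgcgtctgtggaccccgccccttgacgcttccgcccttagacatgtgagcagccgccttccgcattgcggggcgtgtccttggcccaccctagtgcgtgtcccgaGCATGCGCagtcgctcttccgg

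Mrpl27: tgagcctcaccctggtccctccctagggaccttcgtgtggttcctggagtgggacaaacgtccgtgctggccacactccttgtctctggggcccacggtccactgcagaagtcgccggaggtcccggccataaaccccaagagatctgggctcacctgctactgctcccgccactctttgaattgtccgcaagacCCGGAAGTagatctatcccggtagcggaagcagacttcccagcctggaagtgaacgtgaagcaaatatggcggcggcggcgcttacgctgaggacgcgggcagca

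Mrps18b holds 2 NRF1 cores, Mrps18a 1 YY1 motif and Mrpl27 1 ETS motif, whereas Mrps6 and Mrpl45 hold none of the 5 in this window. The window of Mrps6 is 73.7% G and C, against 57.7% for Mrpl45, 59.0% for Mrps18a, 57.0% for Mrps18b and 61.3% for Mrpl27.

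The Scx counts fitted the labels. ScxKO libraries 2, 3, 4 and 5 held 3, 1, 2 and 3 Scx counts, against 177, 132, 252 and 156 in ScxWT libraries 2, 3, 5 and 6, a log2 change of -6.08 ± 0.27 (SE; adjusted p 1.75e-09 in the edgeR quasi-likelihood test, adjusted by Benjamini-Hochberg). Gene counts per library ranged from 17343228 to 22178439 in ScxKO and from 18408278 to 25180790 in ScxWT. ScxWT library 5 stood apart from the other 3 ScxWT libraries on the second principal component, which held 12.9% of the variance, against 53.3% on the first. Of 10 tendon fibroblast markers, 9 were lower in ScxKO, where 14.5% of all genes tested were lower at an adjusted p under 0.05. The summed level of the 10 was 6551 to 7329 CPM in ScxKO and 9332 to 11873 CPM in ScxWT (CPM, the usual depth-scaled count, with TMM factors). The list holds Scx itself. In bulk RNA, fewer cells of a type and less RNA per cell cannot be told apart.

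A minority of the mitochondrial ribosomal protein genes were slightly higher in cells without Scx, and none was lower. Of the 78, 18 (23.1%) were higher in ScxKO at an adjusted p under 0.05 over all genes tested, where 14.0% of all genes were higher. At the same threshold 0 of the 78 were lower, where 14.5% of all genes were lower. At an unadjusted p under 0.05 edgeR also put 0 lower, with 29 higher, and DESeq2 and limma-voom each called 18 higher and 0 lower at the same adjusted threshold. The fitted change was above 0 for 72 genes and below 0 for 6, so that 92.3% of them lay above 0, against 48.8% of all genes tested. Their median log2 change was 0.10, against -0.01 for all genes tested.

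**Figure D1:**
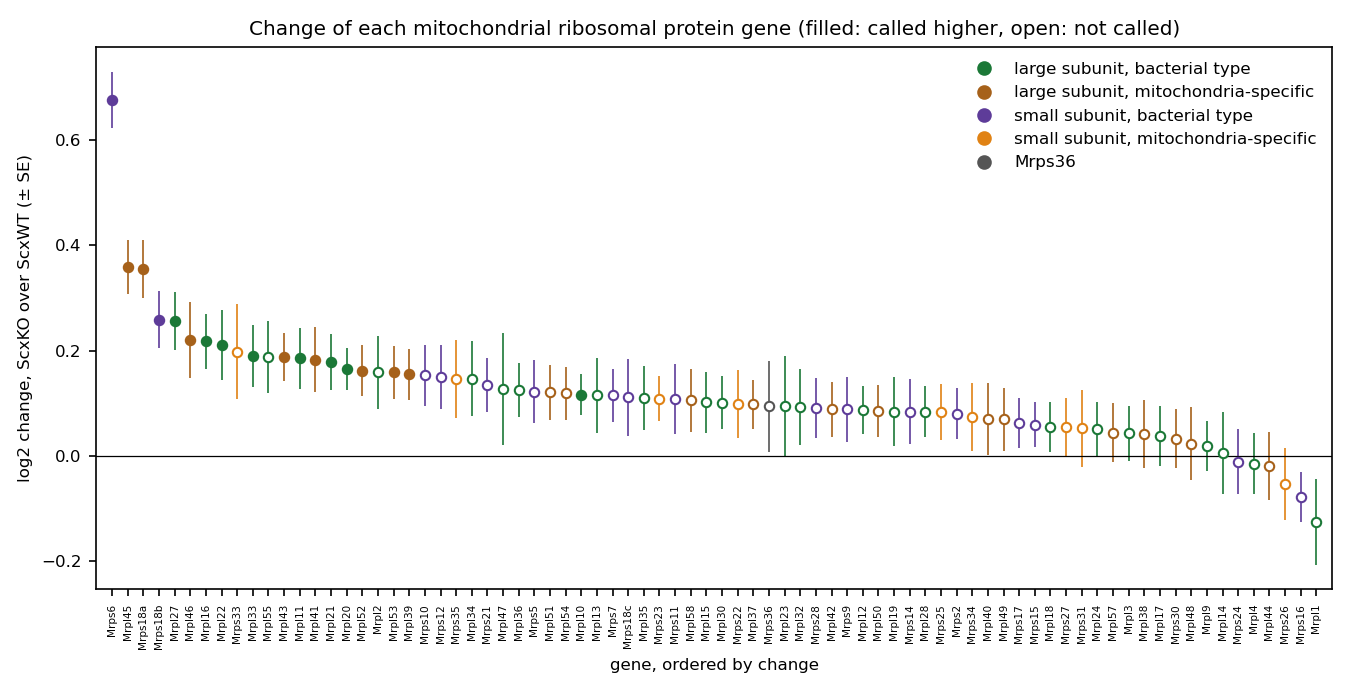
Log2 change of each of the 78 genes, ScxKO over ScxWT, with its standard error, ordered from highest to lowest and coloured by the place of the protein in the ribosome. Filled points were called higher at an adjusted p under 0.05 (18 genes); the highest is Mrps6 at 0.68 and the lowest Mrpl1 at -0.12.

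The differences were small and the measurements tight. Among the 18 genes called, log2 changes ran between 0.12 for Mrpl10 and 0.68 for Mrps6, and 15 of the 18 were rises of under 25%. Their median size was 0.19, against 0.31 for all genes called in either direction. The 60 genes not called ran between -0.12 for Mrpl1 and 0.20 for Mrps33. The median standard error was 0.06 for the 78 genes and 0.07 for all genes tested, and the median coefficient of variation between libraries was 4.28% in ScxKO and 5.85% in ScxWT. In 22 of the 78 genes every ScxKO library lay above every ScxWT library (14.8% of all genes tested did so), and in 1, Mrps16, every ScxKO library lay below (14.3% of all genes).

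**Figure D2:**
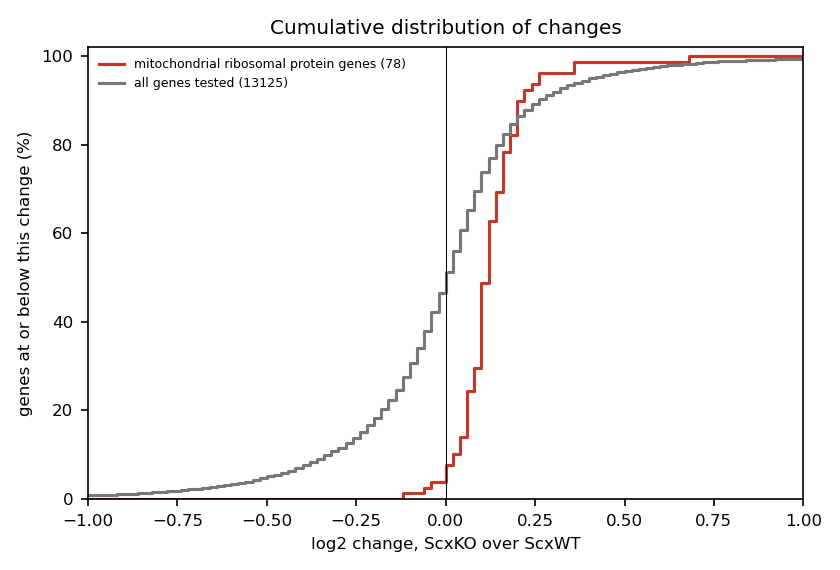
Cumulative share of genes at or below each log2 change, ScxKO over ScxWT, for the 78 mitochondrial ribosomal protein genes and for all 13125 genes tested, in steps along the x axis. The curve of the 78 genes is shifted to the right in its middle (median 0.10 against -0.01) and is steeper, with few genes at either end.

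The count of called genes, and its excess over all genes, depended on which libraries were used. Without ScxKO library 4 it was 8 of 78 (10.3%), where 11.0% of all genes tested were higher, so that no excess over the background was left in that fit. It was 11 (14.1%) without ScxKO library 2, where 12.5% of all genes were higher, 11 (14.1%) without ScxWT library 2 (11.3% of all genes), 12 (15.4%) without ScxWT library 6 (12.6% of all genes), and 28 (35.9%) without ScxWT library 5 (18.3% of all genes). In the other 3 fits that left out 1 library it was 14 to 21 (17.9% to 26.9%, against 11.3% to 13.8% of all genes). By contrast, the median log2 change of the 78 genes ran between 0.09 and 0.12 over the 8 fits that left out 1 library, and 89.7% to 96.2% of the 78 genes lay above 0. With ScxKO library 4 and ScxWT library 5 both left out, a choice made after the data were seen, 16 were called (20.5%, against 16.1% of all genes), 13 of them among the 18. Mrps6, Mrpl45, Mrps18a, Mrps18b, Mrpl27, Mrpl16, Mrpl43 and Mrpl20 were called in each of the 8 fits that left out 1 library, and these were the 8 called without ScxKO library 4. The other 10 lost their calls there, with adjusted p between 0.0670 for Mrpl52 and 0.106 for Mrpl46 by edgeR. Of the 18, 11 kept their calls without ScxKO library 2, 17 without ScxKO library 3, 14 without ScxKO library 5, 11 without ScxWT library 2, 16 without ScxWT library 3, 18 without ScxWT library 5 and 11 without ScxWT library 6. All of the 18 log2 changes stayed above 0 in each of these fits.

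Small-subunit genes held the largest change. Mrps6 (ENSMUSG00000039680.10, chr16:92058270-92112227, plus strand) encodes the homolog of bacterial ribosomal protein S6. It measured 122, 130.0, 144 and 127 CPM in ScxKO libraries 2, 3, 4 and 5, against 79.8, 82.6, 78.3 and 86.3 CPM in ScxWT libraries 2, 3, 5 and 6. The lowest ScxKO library lay well above the highest ScxWT library. Mrps6 averaged 131 ± 9.75 CPM in ScxKO and 81.8 ± 3.52 CPM in ScxWT (SD, n = 4 each), a rise of 59.8% or 0.68 ± 0.05 (SE) on the log2 scale, with an adjusted p of 2.82e-07 by edgeR. Leaving out any 1 library kept it between 0.63 and 0.71.

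Mrps18b (ENSMUSG00000024436.16, chr17:35910379-35916389, minus strand) is the other small-subunit gene that rose, and it encodes a protein of the bacterial S18 family. Its levels were 35.0, 33.7, 35.9 and 36.9 CPM in ScxKO, against 29.6, 31.5, 28.3 and 28.9 CPM in ScxWT. The groups did not overlap. Its log2 change was 0.26 ± 0.05 (adjusted p 0.00212). The genes of the other small-subunit S18 protein, Mrps18c, and of the decoding-centre protein Mrps12 were not called. Mrps18c measured 31.5, 31.9, 30.6 and 32.5 CPM in ScxKO and 29.7, 34.3, 27.3 and 26.3 CPM in ScxWT (log2 change 0.11 ± 0.07, adjusted p 0.279), with ScxWT library 3 above all ScxKO libraries. Mrps12 measured 38.7, 36.0, 39.0 and 37.4 CPM in ScxKO and 32.3, 32.3, 38.1 and 33.1 CPM in ScxWT (0.15 ± 0.06, adjusted p 0.0800). Its groups overlapped through ScxWT library 5 alone, and without that library Mrps12 was called.

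In all, 2 of 26 small-subunit genes (7.69%) rose and 16 of 51 large-subunit genes (31.4%) did, set beside 14.0% of all genes, with median log2 changes of 0.09 for the small and 0.11 for the large subunit. By origin, 10 of 47 genes with a bacterial-type product rose (median 0.11) and 8 of 30 with a mitochondria-specific product (median 0.10). None of the 9 mitochondria-specific small-subunit genes was called (median 0.08), against 8 of 21 mitochondria-specific large-subunit genes (median 0.11). Mrps18b, which was called, was counted as bacterial-type, whereas Mrps18a, also named for the S18 family, was counted as mitochondria-specific. The counts by origin, and the absence of calls among the 9, depend on that placement. These are counts over genes, which are not replicates, and the subgroups were not tested against each other.

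Large-subunit genes with a bacterial-type product gave 8 of the calls. Mrpl27, the gene of a protein close to the peptidyl transferase centre in bacteria, measured 29.8, 30.7, 32.3 and 30.8 CPM in ScxKO, against 25.4, 27.5, 25.5 and 25.1 CPM in ScxWT. Its groups did not overlap, and its log2 change was 0.26 ± 0.05 (adjusted p 0.00242). Mrpl16 had 28.1, 28.4, 29.0 and 27.8 CPM in ScxKO, against 24.0, 24.8, 24.9 and 23.7 CPM in ScxWT (0.22 ± 0.05, adjusted p 0.00572). Both groups were tight and apart. Mrpl20 gave 79.1, 76.5, 80.1 and 78.6 CPM in ScxKO, against 70.0, 71.9, 68.3 and 70.1 CPM in ScxWT (0.17 ± 0.04, adjusted p 0.00608), again with no overlap. For Mrpl21 the levels were 36.3, 35.8, 37.7 and 35.6 CPM in ScxKO, against 32.5, 33.7, 32.4 and 29.7 CPM in ScxWT (0.18 ± 0.05, adjusted p 0.0205). Its groups were apart, with ScxWT library 6 the lowest. Mrpl33 had 84.1, 77.7, 85.3 and 80.0 CPM in ScxKO, against 72.2, 78.6, 63.4 and 72.8 CPM in ScxWT (0.19 ± 0.06, adjusted p 0.0242), and here ScxWT library 3 lay above ScxKO library 3.

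The other 3 genes of this class include a pair from the ribosomal stalk, the site where translation factors dock. Mrpl11 averaged 37.0 ± 1.35 CPM in ScxKO and 32.6 ± 2.36 CPM in ScxWT (SD, n = 4 each; log2 change 0.19, adjusted p 0.0262 by edgeR). Mrpl10 averaged 78.3 ± 1.25 CPM in ScxKO and 72.2 ± 0.444 CPM in ScxWT (0.12, adjusted p 0.0358 by edgeR), the smallest change that was called. The gene of their partner Mrpl12, a member of the same stalk that also binds mitochondrial RNA polymerase, was not called, with 61.4, 58.6, 61.9 and 59.2 CPM in ScxKO against 56.3, 53.6, 58.1 and 58.5 CPM in ScxWT (0.09 ± 0.05, adjusted p 0.170). Its groups nevertheless did not overlap. Mrpl22, the gene of a protein that lines the exit tunnel in bacteria, averaged 24.1 ± 1.59 CPM in ScxKO and 20.8 ± 1.22 CPM in ScxWT (0.21, adjusted p 0.0272 by edgeR). Mrpl11 and Mrpl22 overlapped between the groups, and ScxWT library 3 was the highest ScxWT library of both.

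Large-subunit genes with a mitochondria-specific product gave the other 8 calls. Mrpl45 (ENSMUSG00000018882.12, chr11:97315716-97329920, plus strand) encodes a protein near the exit tunnel that holds the ribosome at the inner membrane. It had 64.3, 67.8, 72.7 and 66.9 CPM in ScxKO, against 53.6, 55.0, 49.4 and 54.0 CPM in ScxWT. ScxKO library 4 was the highest and ScxWT library 5 the lowest of 2 groups that lay apart. Mrpl45 averaged 67.9 ± 3.49 CPM in ScxKO and 53.0 ± 2.49 CPM in ScxWT (SD, n = 4 each), a rise of 28.2% (log2 change 0.36 ± 0.05, adjusted p 7.97e-05 by edgeR). Mrps18a (ENSMUSG00000023967.9, chr17:46110986-46128910, plus strand) is named for the small subunit, but its protein sits in the large one. Mrps18a was counted here with the mitochondria-specific genes, although its name is that of the S18 family. It had 37.3, 37.3, 40.3 and 38.6 CPM in ScxKO, against 32.1, 28.5, 30.4 and 28.7 CPM in ScxWT, with groups apart (0.36 ± 0.06, adjusted p 0.000171).

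The rises of the other 6 genes of this class were smaller. Mrpl43 had 46.1, 45.8, 47.6 and 45.1 CPM in ScxKO, against 39.6, 40.0, 41.4 and 41.0 CPM in ScxWT (log2 change 0.19 ± 0.05, adjusted p 0.00576). Mrpl52 had 62.4, 58.8, 63.5 and 60.0 CPM in ScxKO, against 53.4, 56.4, 57.1 and 51.6 CPM in ScxWT (0.16 ± 0.05, adjusted p 0.0197). Both genes had groups that lay apart, more narrowly in Mrpl52. For Mrpl39 the levels were 50.4, 49.8, 52.3 and 51.5 CPM in ScxKO, against 47.3, 47.2, 42.7 and 46.0 CPM in ScxWT (0.16 ± 0.05, adjusted p 0.0250), with ScxWT library 5 the lowest. Mrpl53, Mrpl46 and Mrpl41 changed by 0.16, 0.22 and 0.18 on the log2 scale (adjusted p 0.0265, 0.0312 and 0.0359), each with every ScxKO library above every ScxWT library.

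**Figure D3:**
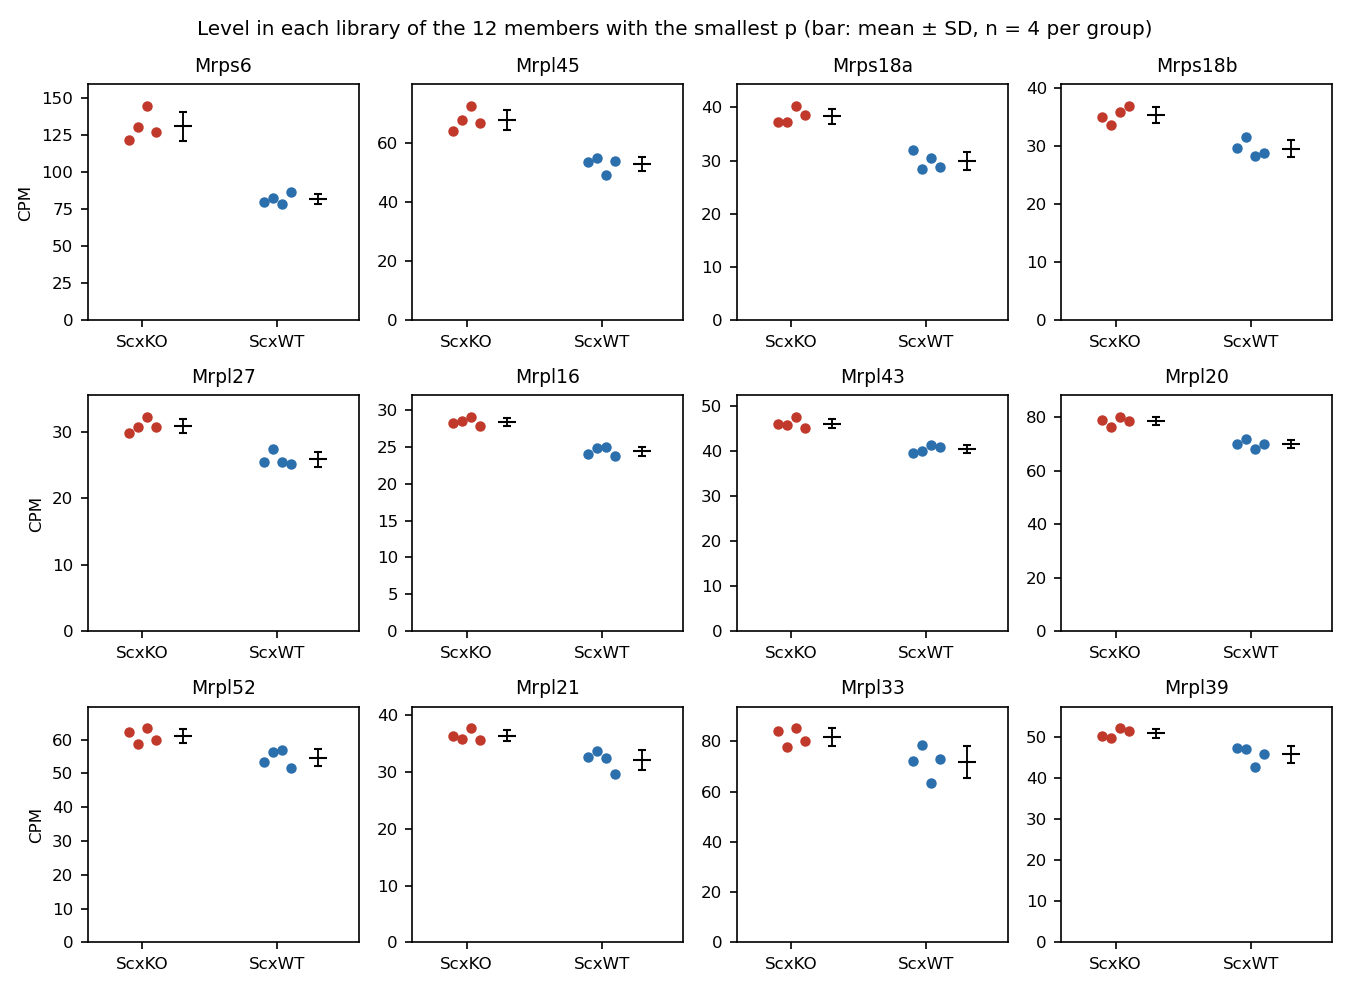
Levels in CPM of the 12 genes with the smallest p, with 1 point per library (libraries in the order of their numbers), the ScxKO group left of the ScxWT group, and bars for the mean and SD of 4 libraries; each y axis starts at 0. The groups lie apart in all panels but Mrpl33, where ScxWT library 3 (78.6 CPM) lies above ScxKO library 3 (77.7 CPM).

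Besides Mrps18a, which rose, 3 more genes have products unusual in place or function, and none of these 3 was called. Mrps30, whose protein sits in the large subunit despite its name, had 29.3, 30.9, 29.5 and 32.2 CPM in ScxKO and 29.6, 30.4, 28.2 and 31.1 CPM in ScxWT (log2 change 0.03 ± 0.06, adjusted p 0.695). Mrpl58, the gene of a peptidyl-tRNA hydrolase built into the large subunit that frees stalled chains, had 32.3, 32.2, 37.4 and 33.5 CPM in ScxKO and 29.4, 32.9, 31.8 and 31.6 CPM in ScxWT (0.11 ± 0.06, adjusted p 0.212). Mrps36 encodes a subunit of the oxoglutarate dehydrogenase complex and was not found in structures of the ribosome. It had 17.0, 17.1, 17.7 and 15.1 CPM in ScxKO and 16.7, 17.6, 14.0 and 14.3 CPM in ScxWT (0.09 ± 0.09, adjusted p 0.448). The groups overlapped in each of these 3 genes.

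The 6 genes with a fitted change below 0 were Mrpl1, Mrps16, Mrps26, Mrpl44, Mrpl4 and Mrps24. Mrpl1 had 19.4, 18.9, 15.4 and 18.2 CPM in ScxKO and 19.3, 20.8, 17.7 and 21.0 CPM in ScxWT (log2 change -0.12 ± 0.08, adjusted p 0.279). Mrps16 had 33.8, 35.3, 34.8 and 35.3 CPM in ScxKO and 37.7, 36.8, 37.0 and 35.4 CPM in ScxWT (-0.08 ± 0.05, adjusted p 0.251). These were singled out after their values were seen, as was Mrps16 among the genes whose groups did not overlap. None of the 6 passed the test.

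Levels between genes were compared per kilobase of exon. Averaged over all libraries, Mrpl54 was the highest at 77.0 CPM per kb, followed by Mrps6 at 69.3 and Mrps21 at 64.7. In ScxKO the mean level of Mrps6 was 85.3 CPM per kb and that of Mrpl54 80.2, whereas in ScxWT Mrps6 had 53.3 and Mrpl54 73.8, so that the order of these genes differed between the groups. Mrpl54 itself was not called (log2 change 0.12 ± 0.05, adjusted p 0.0876), nor was Mrps21 (0.14 ± 0.05, adjusted p 0.0575). The lowest levels per kb were those of Mrpl23 at 1.29, Mrps35 at 2.05 and Mrpl47 at 3.45 CPM per kb, and none of these 3 was called (log2 changes 0.09, 0.15 and 0.13). Exon lengths were summed over all annotated transcripts, so genes with long rare isoforms have low values per kb. In counts, Mrpl23, the gene of an exit-tunnel protein, was the lowest of the 78, with 6.73, 6.83, 6.44 and 6.11 CPM in ScxKO and 6.02, 5.56, 6.84 and 5.94 CPM in ScxWT.

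Summed over the 78 genes, ScxKO libraries 2, 3, 4 and 5 had 3222, 3169, 3357 and 3212 CPM, against 2942, 3043, 2948 and 2931 CPM in ScxWT libraries 2, 3, 5 and 6. The groups did not overlap, and they averaged 3240 ± 81.1 CPM in ScxKO and 2966 ± 51.7 CPM in ScxWT (SD, n = 4 each). As a share of all gene counts this was 0.317% to 0.334% in ScxKO and 0.291% to 0.309% in ScxWT. ScxKO library 4, the shallowest, held the highest level of 44 of the 78 genes. The lowest level fell in ScxWT library 6 for 24 genes and in ScxWT library 5 for 22.

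The called genes had shorter annotated transcripts at the median, taking the longest annotated transcript of each gene. Not all of the 18 were short: Mrpl45 has 2431 bases and Mrpl11 3045. The median transcript length was 1136 bases for the 18 called genes, 2216 bases for the other 60 and 3426 bases for all genes tested, with a median GC content of 51.6%, 48.8% and 49.7%. With an offset for GC content and length in each library, 26 of the 78 genes (33.3%) were higher, where 21.6% of all genes were, so the count rose along with the background. Of the 18, 12 were still among them, and the median log2 change was 0.09. Mrpl20, Mrpl52, Mrpl53, Mrpl22, Mrpl46 and Mrpl41 lost their calls there. The part of transcript length in the calls was not tested further.

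Mrps6 shares its start with another gene. Slc5a3, the gene of the sodium and myo-inositol cotransporter, begins 52 bases downstream on the same strand, and 159 of the 1533 exon bases of Mrps6 belong also to Slc5a3. Slc5a3 had 174, 213, 243 and 203 CPM in ScxKO libraries 2, 3, 4 and 5, against 100.1, 98.8, 78.5 and 122 CPM in ScxWT libraries 2, 3, 5 and 6. Its groups did not overlap either, and its log2 change was 1.06 ± 0.11 (adjusted p 2.91e-06). In both genes ScxKO library 4 was the highest of all libraries and ScxWT library 5 the lowest. The sources used here do not say how reads in the shared exon were assigned, and the part of Slc5a3 reads in the Mrps6 counts was not tested. A further annotated gene, Gm49711, starts 46 bases from Mrps6 on the same strand and shares 305 exon bases with it. Gm49711 is not among the counted genes.

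Many of these genes start close to a neighbour on the opposite strand, in some cases with overlapping ends. A protein-coding gene started on the opposite strand within 1000 bases of 33 of the 78, and 29 of these neighbours were tested and were not mitochondrial ribosomal protein genes themselves. Of the 29, 6 were higher and 3 lower in ScxKO, with a median log2 change of 0.01. Over all genes tested, 14.0% were higher and 14.5% lower. The neighbours were not tested as a set against these shares. Of the called genes, 7 had a tested neighbour within this distance on the opposite strand. For Mrpl46 that neighbour was Mrps11, itself one of the 78. Among the 7, Mrpl43 had a neighbour that rose, Twnk, the gene of the mitochondrial DNA helicase. Twnk had 22.6, 19.3, 23.5 and 21.9 CPM in ScxKO, against 17.3, 17.6, 19.3 and 20.1 CPM in ScxWT (0.23 ± 0.08, adjusted p 0.0349). Its groups overlapped through ScxKO library 3, and its call was lost without ScxKO library 2, 4 or 5 or ScxWT library 2 or 3 (log2 change 0.19 to 0.28 over the 8 fits that left out 1 library). The exons of Twnk share 507 bases with Mrpl43 on opposite strands.

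Mrpl27 had the neighbour that fell. Eme1, which encodes a subunit of a structure-specific DNA endonuclease, had 2.68, 1.82, 2.84 and 1.75 CPM in ScxKO, against 3.25, 4.01, 3.14 and 3.93 CPM in ScxWT (log2 change -0.67 ± 0.17, adjusted p 0.00782). Mrpl27 and Eme1 thus differed in opposite directions from starts 197 bases apart. Their exons share 75 bases on opposite strands. Sars2, the gene of the mitochondrial seryl-tRNA synthetase, is the neighbour of Mrps12; it averaged 9.75 ± 0.730 CPM in ScxKO and 11.5 ± 1.08 CPM in ScxWT (SD, n = 4 each), and neither gene was called (Sars2 -0.24 ± 0.09, adjusted p 0.0569). The other lower neighbours were the mitotic genes Ncapd2 beside Mrpl51 (-0.41) and Ska3 beside Mrpl57 (-0.48). The other higher ones were Tmem63b beside Mrpl14 (0.26), Eme2 beside Mrps34 (0.22), Ndufs6 beside Mrpl36 (0.20), Psma2 beside Mrpl32 (0.17) and Fau beside Mrpl49 (0.14), and none of the 7 mitochondrial ribosomal protein genes beside these was called. Exons of 33 of the 78 genes overlap another annotated gene, 28 of them on the opposite strand, and without knowing whether counting used strand such reads cannot be told apart. Among the called genes, Mrpl53 shares 695 of its 790 exon bases with Gm42688 on the same strand, which is not among the counted genes. Mrps18b shares 638 of its 2089 exon bases with Gm16279 on the opposite strand. Further called genes overlap another gene too, among them Mrpl33 (261 bases, same strand) and Mrpl10 (240 bases, opposite strand).

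**Figure D4:**
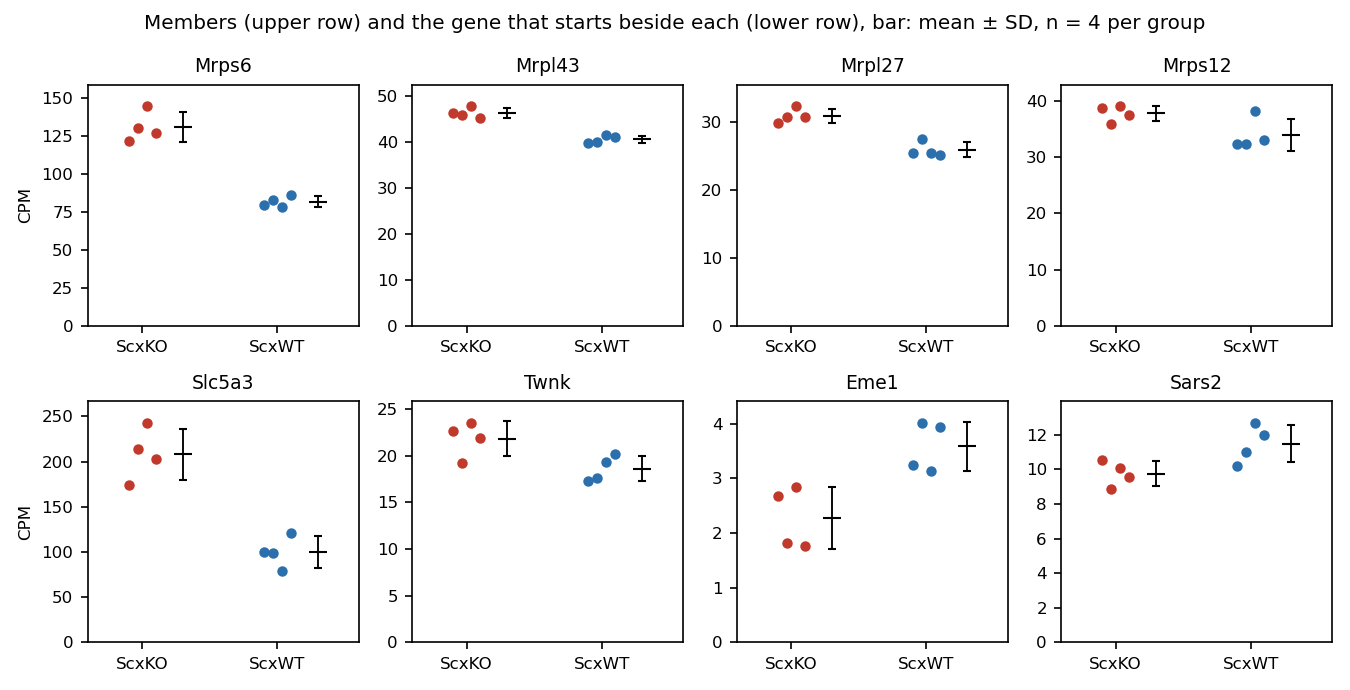
Levels in CPM of 4 mitochondrial ribosomal protein genes (upper row) and of the gene that starts beside each (lower row), with 1 point per library, the ScxKO group left of the ScxWT group, and bars for the mean and SD of 4 libraries. Slc5a3 lies higher in ScxKO like Mrps6, and Twnk like Mrpl43, whereas Eme1 lies lower in ScxKO and Mrpl27 higher.

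Promoters were searched for motifs of factors known to act on nuclear genes of mitochondria, and for 2 E-boxes. RefSeq gave a window for 69 of the 78 genes, the 18 called ones included. The NRF1 core was found in 8 of the 69 (11.6%), against 5.99% of tested genes and 3.05% of all genes with a window. The ETS motif, bound by factors such as GABP, was found in 12 (17.4%, against 9.06% of tested and 4.31% of all genes). The YY1 motif was also found in 12 (17.4%, against 5.20% and 3.19%). The Myc E-box was found in 5 (7.25%, against 11.8% and 8.09%), and the Scx-type E-box in 7 (10.1%, against 13.4% and 19.2%). Among the 18 called genes, 5 windows held an NRF1 core, 4 an ETS motif, 1 a YY1 motif, 1 a Myc E-box and 0 a Scx-type E-box, which says only that those letters are not in these windows. None of the 5 motifs lies within another, although GCCATCTT, the YY1 motif on the other strand, shares the letters CATCT with the Scx-type E-box. Matches are given as a description without a test.

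Counts for the rest of the mitochondrial translation system were near or below the shares of all genes called (14.0% higher and 14.5% lower). None of the 5 ribosomal proteins outside the naming rule was called (median log2 change 0.01). Among them Aurkaip1 averaged 84.7 ± 3.65 CPM in ScxKO and 78.6 ± 2.70 CPM in ScxWT, and Ptcd3 48.9 ± 1.05 CPM in ScxKO and 53.5 ± 4.09 CPM in ScxWT (SD, n = 4 each). Of 15 translation factors, 1 rose, Gfm1, the elongation factor that moves the ribosome along (0.13 ± 0.04, adjusted p 0.0334), and the median was 0.06. Of 29 genes for ribosome assembly and rRNA modification, 3 rose (10.3%) and 0 fell (median 0.07): the rRNA methyltransferase gene Nsun4 (0.22), the pseudouridine synthase gene Trub2 (0.18) and the protease gene Afg3l2 (0.13). Of 20 mitochondrial aminoacyl-tRNA synthetase genes, 2 fell, Vars2 (-0.26) among them, and 0 rose (median 0.02). The calls of Gfm1, Nsun4, Trub2, Afg3l2 and Vars2 were each lost in at least 1 fit that left out 1 library. Gfm1 lost its call without ScxKO library 3, 4 or 5 or ScxWT library 2, Nsun4 without ScxKO library 3, Trub2 without ScxKO library 2 or ScxWT library 2, Vars2 without ScxKO library 3 or 5, and Afg3l2 without any single library but ScxWT library 5 or 6. No list was tested against another.

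Genes for the mitochondrial genome and its regulators were also called in shares near or below those of all genes (14.0% higher and 14.5% lower). Of 15 genes for replication and transcription of mitochondrial DNA, 2 rose (13.3%) and 1 fell (6.67%; median 0.01). Lrpprc, whose protein stabilises mitochondrial mRNA, had 104, 110.3, 113 and 114 CPM in ScxKO, against 92.3, 88.8, 83.3 and 90.6 CPM in ScxWT (log2 change 0.31 ± 0.05, adjusted p 0.000115), with groups apart. Polrmt, the mitochondrial RNA polymerase gene, had 28.9, 25.7, 25.8 and 26.3 CPM in ScxKO, against 31.4, 28.3, 36.0 and 32.9 CPM in ScxWT (-0.27 ± 0.07, adjusted p 0.00912), with an overlap through ScxKO library 2. Of 11 tested regulators, Ppargc1a, the gene of the coactivator PGC-1 alpha, was the 1 that rose. It rested on few reads, 14, 15, 17 and 17 counts in ScxKO against 8, 3, 6 and 11 in ScxWT (1.31 ± 0.31, adjusted p 0.00518), yet its groups did not overlap. Max (0.10), Gabpb2 (-0.07) and Yy1 (-0.06) were not called, nor were Nrf1 (0.06), Gabpa (0.02) and Myc (-0.01), which are named because their motifs were searched. Of 15 mitochondrially encoded genes looked for by symbols beginning with mt-, 0 were among the counted genes, so their levels are not described.

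Some other measures also moved with the groups. Over all genes tested, 14.0% were higher and 14.5% lower, and lists with few tested genes say little beside those shares. Of 20 proliferation markers, 0 were higher and 18 lower in ScxKO (median log2 change -0.42), with a summed level of 947 to 1046 CPM in ScxKO and 1182 to 1436 CPM in ScxWT. Of 3 tested macrophage and leukocyte markers, 1 was higher and 0 lower, with summed levels of 18.1 to 21.6 CPM in ScxKO and 15.9 to 18.1 CPM in ScxWT. Of 3 tested endothelial markers, 1 was higher and 1 lower (49.5 to 54.2 CPM in ScxKO, 68.4 to 86.4 CPM in ScxWT). Tek alone made up most of that sum, with 46.6 ± 3.55 CPM in ScxKO and 74.2 ± 7.43 CPM in ScxWT (SD, n = 4 each), whereas Kdr was called higher (log2 change 0.48) and Cdh5 was not called (0.18). Skeletal muscle markers had 0 higher and 1 lower of 3 tested, with 2 of the 7 listed at 0 counts (27.3 to 36.6 CPM in ScxKO, 35.0 to 41.4 CPM in ScxWT). Schwann and glial markers had 0 higher and 1 lower of 5 (31.4 to 35.8 CPM in ScxKO, 35.3 to 40.1 CPM in ScxWT), and neither of the 2 tested keratinocyte markers was called (85.1 to 88.7 CPM in ScxKO, 85.7 to 88.4 CPM in ScxWT). Of the other sums, Cd14 made up most of the macrophage and leukocyte one, Acta1 of the skeletal muscle one and Dsp of the keratinocyte one. The part of these differences in the levels of the mitochondrial ribosomal protein genes was not tested.

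The authors' deposited table, made from other counts, was set beside these results. At an adjusted p under 0.05, 17 of the 78 genes were higher in the authors' deposited table, where 15.1% of its genes were higher, and 0 were lower, where 14.1% were. The median log2 change of the 78 genes in the authors' deposited table was 0.11, with 11 genes below 0. Of its 17 higher genes, 14 were among the 18 called from the counts. Mrps6 had a log2 change of 0.76 and Mrpl45 one of 0.34 in the authors' deposited table. Mrps33, Mrpl50 and Mrps14 were called higher in the authors' deposited table and not from the counts. Both tables rest on cells of the same study, so they are not independent measurements.

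**Figure D5:**
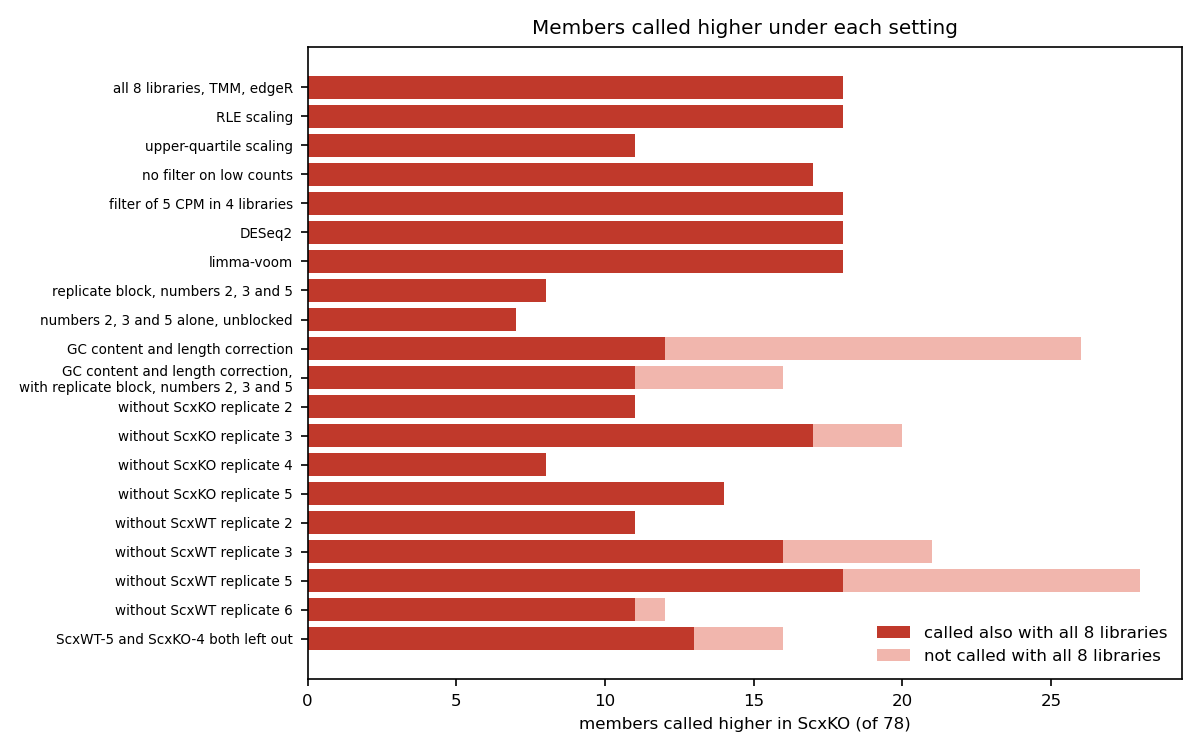
Number of the 78 genes called higher in ScxKO at an adjusted p under 0.05 in each of 20 fits, with dark bars for genes also called with all 8 libraries (18) and light bars for genes that were not. The count runs between 7 and 28, with the lowest in a fit of 6 libraries and the highest without ScxWT library 5.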

How the data were processed

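The 8 libraries were grouped by their genotype label. Per the labels' protocols, total RNA was taken with the miRNeasy Micro kit and treated with DNase I. The submitters' processing notes name STAR, DESeq2, FastQC and mm10. The sources used here give no versions, read counter or annotation, nor how strand and reads with several matches were handled, so counts of genes with pseudogenes or overlapping genes are uncertain. The authors deposited raw whole-number counts by gene symbol, and these were tested. The rows of unassigned (no feature) and ambiguous reads (7.73% ± 0.375 and 0.549% ± 0.0126 of counts in ScxKO, 8.30% ± 0.542 and 0.496% ± 0.00696 in ScxWT; SD, n = 4 each) were left out. The authors' deposited comparison table gives a log2 fold change and an adjusted p-value per gene, per the file headers. Which group its log2 values put on top was read from their sign: 91.8% of 13110 genes had the same sign as in the counts. Its 2 columns of means whose names show no group were not used.

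The fit used edgeR 4.0.16 under R 4.3.3 (TMM factors, filterByExpr with a minimum count of 10 and a total of 15, quasi-likelihood test on group alone, Benjamini-Hochberg adjustment over all 13125 genes tested at 0.05). The standard error is the absolute log2 change over the square root of F, and the common BCV (biological coefficient of variation) was 5.50%. Every pair of libraries of a group differed by more than sampling noise, so none was merged. The labels name no separate animals or cultures, and p-values then reflect only the spread among libraries, possibly technical. Xist was present and Y-linked genes had at most 2 counts in all 8 libraries. Symbols were matched to GENCODE mouse release M21 on GRCm38, which placed 24490 of 24982 genes, and promoters to RefSeq GRCm38.p6. The fit was also run on simulated counts with planted changes larger than most of those called here. Its outcome is not given and is not used to back the calls.

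The members and the gene lists were chosen with earlier results of these data known. Named were every called member, with values in each library for the 12 with the smallest p, Mrpl12, Mrps12, Mrps18a, Mrps18b, Mrps18c, Mrps30, Mrps36 and Mrpl58, the 3 highest and 3 lowest in CPM per kilobase, and up to 4 genes with the smallest p of each other list; 1 gene that this rule names is not reported here but stays in every count. Other settings tried were scaling by RLE or upper quartile, dropping the filter or asking for 5 CPM in 4 libraries, DESeq2 1.42.0, limma-voom (limma 3.58.1), a block for replicate number, the 6 libraries numbered 2, 3 and 5, a GC content and length offset (mgcv 1.9.3), adjusted p of 0.01 and 0.1, and each library left out.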

Additional observations from a re-analysis of the deposited data

Results flagged for a closer look

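In 5 of 122 groups of 4 libraries that were looked at, 1 library stood further from the others than Dixon's 95% critical value allows; chance flags about 5% of groups. Mrpl27 was at 27.5 CPM in ScxWT library 3, with the other ScxWT libraries at 25.1 to 25.5 CPM. Mrps12 was at 38.1 CPM in ScxWT library 5, with the others at 32.3 to 33.1 CPM. Among the related genes, Afg3l2 was at 81.8 CPM in ScxKO library 4, with the other ScxKO libraries at 80.2 to 80.5 CPM, and Polrmt at 28.9 CPM in ScxKO library 2, with the others at 25.7 to 26.3 CPM. The summed level of the 78 mitochondrial ribosomal protein genes was 3043 CPM in ScxWT library 3, with the other ScxWT libraries at 2931 to 2948 CPM.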

How the results depend on the processing

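None of the 78 genes was called lower in any of the 20 fits or at either other threshold, and their median log2 change stayed between 0.08 and 0.12. The number called higher, 18, was 11 with upper-quartile scaling (14.1%, against 11.7% of all genes). With numbers 2, 3 and 5 alone without a block it was 7. At an adjusted p under 0.01 it was 8 (10.3%, against 9.07% of all genes), little above the background. At 0.1 it was 28 (35.9%, against 17.7%). When 1 library was left out it was 8 to 28, with the shares given above. RLE scaling, DESeq2, limma-voom and the stricter filter each gave 18 (23.1%, against 9.84% to 15.7% of all genes). Using no filter gave 17 (21.8%, against 10.2%) and the GC content and length correction 26 (33.3%, against 21.6%). The 9.84% of DESeq2 and the 10.2% without a filter were shares of 18156 and 18157 genes. RLE scaling and limma-voom covered 13125 genes, of which 14.2% were higher in each. The lower backgrounds of DESeq2 and of the fit without a filter are therefore not like the others. Over all genes tested, the counts of 1842 higher and 1902 lower became 2811 and 2152 with that correction, 1539 and 2288 with upper-quartile scaling, 1191 and 1143 at an adjusted p under 0.01, and 1289 and 1239 with numbers 2, 3 and 5 alone. The replicate block over numbers 2, 3 and 5 gave 8 higher (10.3%, against 12.1% of all genes), and with the GC content and length correction 16 (20.5%, against 20.8%); numbers 2, 3 and 5 without a block gave 8.97% against 9.81%. In these 3 fits, and without ScxKO library 4, the share called was at or below that of all genes. Replicate numbers are not shown to pair libraries: same-numbered libraries correlated at -0.06, 0.16 and 0.06 in their deviations from the group means, and ScxKO library 2 correlated best with ScxWT library 5 (0.14). Mrps6, Mrpl45, Mrps18a, Mrps18b, Mrpl27 and Mrpl43 were called in each of the 20 fits. Over the 18 called genes and 21 alternatives, 95 of 378 values lost the call and 0 changed direction. Of the genes not called, Mrps36 turned to -0.036 under the GC content and length correction with the replicate block, and Dap3 (-0.01) was between -0.034 and 0.016 when 1 library was left out, above 0 without ScxKO library 3 or 5 or ScxWT library 3. The cause of these changes was not tested. The smallest change called, 0.12 in Mrpl10, had a standard error of 0.04, below the median of 0.06, and Mrps33 at 0.20 with a standard error of 0.09 was not called, so changes of this size could be missed at this depth and number of libraries.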
